A study of Caenorhabditis elegans with 4 samples.

Results

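The NFYA-1 peaks described here lie in the centre of chromosome II of the nematode Caenorhabditis elegans. They are the intervals whose midpoint falls from position 4900000 to below position 12000000 of build WS180, a stretch of 7.1 Mb taken as the low-recombination centre of the chromosome. Position alone defined them. The combined list held 478 of its 5320 peaks there, the replicate 1 list 257 of 2907 and the replicate 2 list 308 of 3319. The rest of chromosome II is called its arms, and these held 381, 217 and 253 peaks in the same order.

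The data came from chromatin immunoprecipitation with sequencing (ChIP-seq) of late embryos, in 2 ChIP libraries and 2 input libraries that share replicate numbers. All 4 libraries were made from hermaphrodites of strain OP404 grown at 20 °C. Its genotype is unc-119(ed3) III with the transgene wgIs404, which holds nfya-1 fused to TY1, GFP and FLAG tags together with unc-119(+). The transgene was brought in by bombardment, and the genotype lists no mutation of the chromosomal nfya-1. Each ChIP used anti-GFP antibodies on extract of whole embryos, so the peaks do not tell in which cells NFYA-1 was bound, and no sample of an untagged strain was analysed here. The labels do not say whether the replicates were separate cultures.

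NF-Y is a complex of A, B and C subunits. The B and C subunits pair through histone-like folds, and the A subunit, here NFYA-1, reads the CCAAT box, an element common in promoters. In C. elegans the complex is known for restraining the Hox gene egl-5. The autosomes of this worm have gene-dense centres with little recombination, flanked by arms that recombine more and hold more repeats.

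Each interval carries 1 deposited value, a q-value from the peak caller. Strength below means −log10 of that q, which grows with sequencing depth as well as with enrichment, and depth is not known from the lists. No genome or annotation of build WS180 was used here, so the regions are given by position, without sequence, motif or gene.

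NFYA-1 peaks were more closely packed in the centre of II than in its arms in each of the 3 lists. The combined list had 67.3 peaks per Mb in the centre and 46.7 in the arms, a ratio of 1.44 (exact 95% interval 1.26 to 1.66). In replicate 1 the densities were 36.2 and 26.6 peaks per Mb, a ratio of 1.36 (1.13 to 1.64). In replicate 2 they were 43.4 and 31.0, a ratio of 1.40 (1.18 to 1.66). The centre thus held 55.6% of the combined peaks of II on 46.5% of the span. The two-sided exact binomial test gave adjusted p-values over the 3 lists of 2.66e-07 for the combined list, 0.000897 for replicate 1 and 0.000120 for replicate 2. The test is across peaks, which are not replicates of a condition, and the combined list is not independent of the others. It also takes peaks as placed independently of each other. In the 71 sections of 100 kb of the centre, the combined count had a mean of 6.73 and a standard deviation of 3.87. That spread is wider than independent placement gives, so the p-values are likely too small and the intervals too narrow. The left arm was the sparser arm, with 43.1 combined peaks per Mb against 52.04 in the right arm. The other chromosomes together had 52.9 combined peaks per Mb.

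Within the centre the density was uneven, and both edges were dense. The first 500 kb held 41 combined peaks (82.0 per Mb) and the last 500 kb held 46 (92.0 per Mb), with 64.1 per Mb between them. Just outside, the next 500 kb held 31 combined peaks on the left and 21 on the right. On the left the packing had therefore begun before the window opened, and on the right it fell from 46 to 21 at the boundary. The centre was also counted in fixed 500 kb steps from its left edge. In the combined list, the sparsest full step ran from 5900000 to 6400000, with 17 combined peaks, 13 in replicate 1 and 13 in replicate 2. In replicate 1 the sparsest ran from 9400000 to 9900000, with 9 peaks. The densest step in the combined list and in replicate 1 ran from 6400000 to 6900000, with 49 combined peaks, 27 in replicate 1 and 29 in replicate 2. In replicate 2 it was 11400000 to 11900000, with 34 peaks. The last 500 kb, which cuts across these steps, held more than the densest step of either replicate, with 30 peaks in replicate 1 and 38 in replicate 2. Over the 71 sections of 100 kb, the combined count ranged from 1 to 20 with a median of 6.

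**Figure D1:**
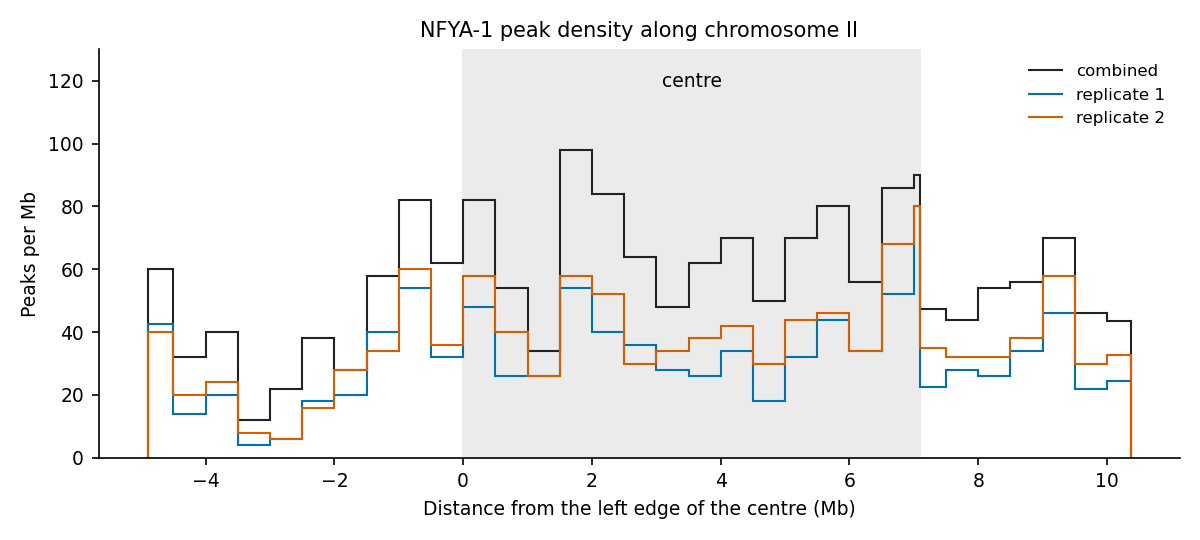
Peaks per Mb (vertical axis) in 500 kb steps along chromosome II, against distance in Mb from the left edge of the centre, for the combined list and both replicates. Grey marks the centre, whose last step is 100 kb long, and shorter steps also stand next to its right edge and at the chromosome ends. The combined list rises to 98.0 peaks per Mb in the densest 500 kb of the centre and falls to 12.0 in the left arm.

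The surplus of the centre was larger among weaker peaks. Splitting the whole combined list at its median q, the weaker part had 36.3 peaks per Mb in the centre and 20.9 in the arms, a ratio of 1.74 (exact 95% interval 1.42 to 2.12). The stronger part had 30.99 and 25.7 peaks per Mb, a ratio of 1.20 (0.993 to 1.46), whose exact p was 0.0593. Among the 1000 strongest combined peaks the densities were 9.86 and 9.80 per Mb, a ratio of 1.01 (0.720 to 1.40). The weaker parts of the replicate lists had ratios of 1.63 and 1.74, and the stronger parts had ratios of 1.14 and 1.13. With the combined list cut into 4 equal parts by strength, the ratio was 1.14 in the strongest part, 1.27 in the second, 2.14 in the third and 1.43 in the weakest. It did not grow steadily as peaks weakened.

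**Figure D2:**
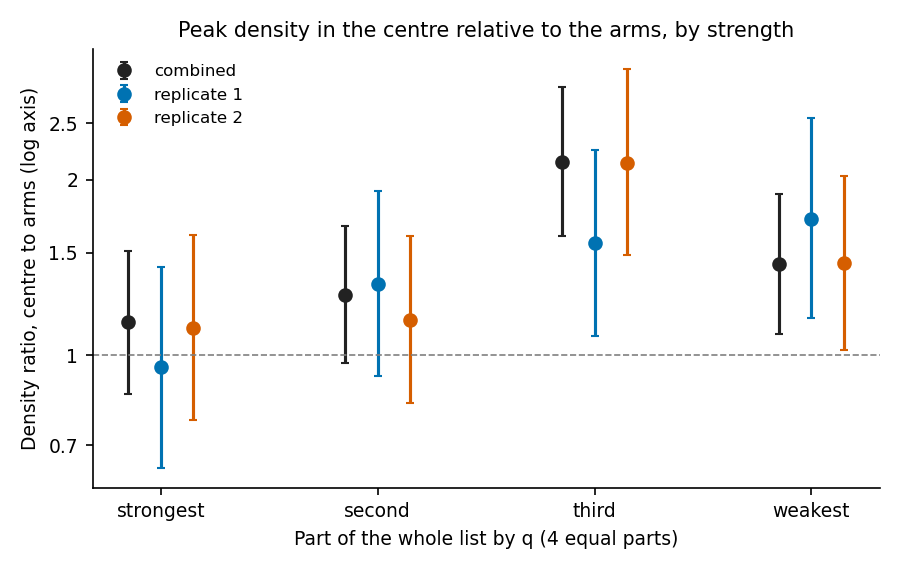
Ratio of peak density in the centre to that in the arms of chromosome II (vertical, log axis) for each of 4 equal parts of a whole list ordered by q (horizontal), in the 3 lists. Points are ratios, bars are exact 95% intervals over peaks, and the dashed line marks equal density. In the strongest part the ratios were 1.14, 0.955 and 1.11 for the combined list, replicate 1 and replicate 2, and in the third they were 2.14, 1.55 and 2.13.

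The difference in strength between centre and arms was itself tested with Fisher's exact test, two-sided, at both splits in the 3 lists. Of the combined peaks, 46.03% of the 478 in the centre and 55.1% of the 381 in the arms belonged to the stronger part (odds ratio 0.694, exact adjusted p = 0.0277 over 6 tests). In replicate 2 the shares were 45.1% and 55.7% (odds ratio 0.653, Fisher's exact adjusted p = 0.0277). In replicate 1 they were 45.5% and 54.4%, which did not pass (odds ratio 0.701, exact adjusted p = 0.0781). For a place among the 1000 strongest, the shares were 14.6% and 21.0% in the combined list and 28.4% and 39.2% in replicate 1, each with an exact adjusted p of 0.0277. In replicate 2 they were 25.3% and 29.6%, which did not pass (exact adjusted p = 0.255). The centre was lower in each of the 6 comparisons, which pooled the left and right arms and did not test them apart. These splits were chosen for testing after the densities had been seen.

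Typical peaks of the centre were of modest strength and width. The median strength was 7.71 in the combined list (quartiles 4.98 and 13.3), 6.91 in replicate 1 and 6.32 in replicate 2. In the arms the medians were 9.06, 7.74 and 7.30. The right arm was the stronger one, with a combined median of 9.44 against 8.87 in the left. In replicate 1 the medians were 9.93 in the right arm and 6.51 in the left, the latter below that of the centre. In replicate 2 they were 8.34 and 6.60, so in the replicates the left arm lay near the centre. Median width in the centre was 338.5 bp in the combined list, 337 bp in replicate 1 and 327.5 bp in replicate 2. The combined peaks covered 195.8 kb, or 2.76% of the centre. Wider peaks were the stronger ones, with a Spearman's rho of 0.598 across the 478 combined peaks, which share libraries and a caller that sets both values.

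The strongest combined regions of the centre stood near its right edge. The first ran from 11748538 to 11750450. Its q was 1.71e-211 in the combined list, 8.40e-155 in replicate 1 and 2.56e-109 in replicate 2. The second ran from 11633868 to 11636172, with a q of 1.29e-196, 2.57e-103 and 2.24e-93 in the same order. They ranked 4 and 8 in the whole combined list. The third, from 11746518 to 11747333, ended 1204 bp before the first and had a q of 4.35e-84, 4.08e-46 and 6.68e-42. It was the last of the centre among the 100 strongest of the whole list, which held 3 peaks of the centre and 11 of the arms.

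Below these 3 regions the strength dropped and the regions were spread along the centre. The fourth, from 10563241 to 10563692, was 452 bp wide and had a combined q of 2.34e-70, with 2.42e-36 in replicate 1 and 1.79e-40 in replicate 2. The fifth, from 9059825 to 9060799, had a combined q of 3.35e-69 and was stronger in replicate 1 (3.21e-40) than in replicate 2 (5.72e-26). The strongest combined peak in the left part of the centre ran from 5844573 to 5845309, with 3.62e-59 in the combined list, 3.50e-31 in replicate 1 and 1.23e-31 in replicate 2. Its replicate values were almost equal. A region from 10861259 to 10861901 was stronger in replicate 2 (3.20e-42) than in replicate 1 (5.29e-27), with a combined q of 1.18e-55. The region from 8028082 to 8028953 had a combined q of 2.58e-55, and there replicate 1 was the stronger (8.73e-33 against 6.75e-26). A pair of neighbours, from 9282625 to 9283184 and from 9283764 to 9285420, had combined q values of 5.58e-55 and 1.78e-46.

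Over the 20 strongest combined peaks of the centre found in both replicates, strength ran from 40.7 to 210.8 with a median of 52.1. In replicate 1 the same regions ran from 18.2 to 154.1 (median 26.5) and in replicate 2 from 18.1 to 108.6 (median 26.7). Replicate 1 was the stronger library at 10 of them and replicate 2 at the other 10. All 20 were wider than the median peak of the centre, from 382 to 2305 bp. By position, 14 of the 20 lay at or above 9000000, a part that makes up 42.3% of the window and held 208 of its 478 combined peaks. Of the 30 peaks of the centre among the 500 strongest of the whole list, 21 lay there. The last 500 kb alone held 6 of the 20.

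**Figure D3:**
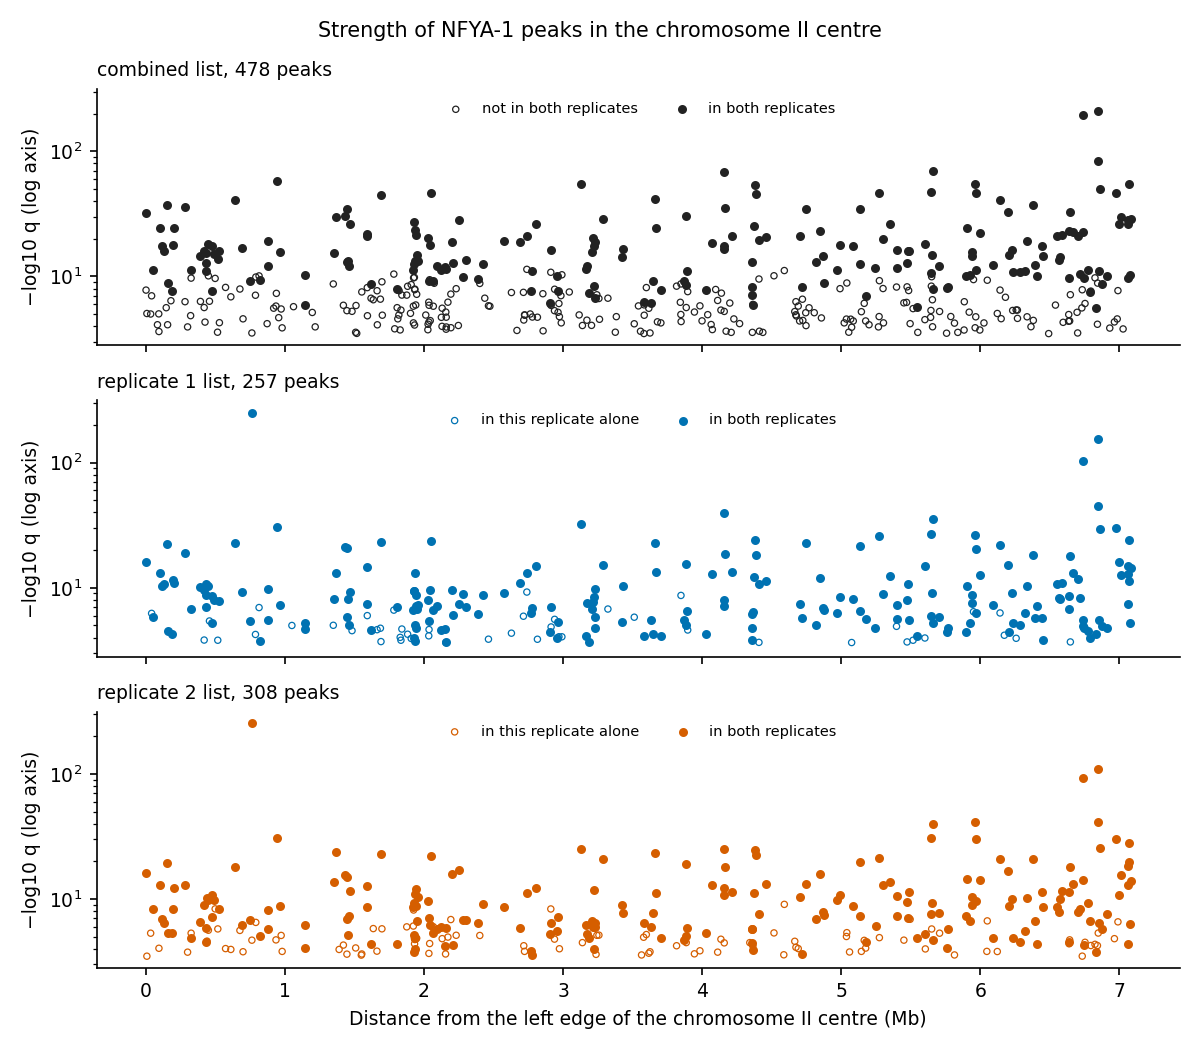
Strength (−log10 q, log axis) of each peak of the chromosome II centre against its distance in Mb from the left edge, with 1 panel for each list. Filled points were found in both replicates and open points were not. The 2 highest points of the combined list, at 210.8 and 195.9, stand near the right edge, while the highest of each replicate stands in the left part and has no counterpart in the combined panel.

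The strongest NFYA-1 region of the centre in either replicate had no interval in the combined list. Replicate 1 placed it from 5660375 to 5662792 (4.80e-252) and replicate 2 from 5660632 to 5662410 (3.99e-255). It ranked 2 in each whole replicate list. The next region of the centre, from 11748840 to 11750431 in replicate 1, had a strength of 154.1 against 251.3, and in replicate 2 the values were 108.6 against 254.4. The 2 libraries thus gave nearly the same value at the leading region and differed more at the second. The nearest combined interval on the right began 293 bp away, from 5663086 to 5663507, and was weak (q of 0.000293, found in replicate 2 alone). On the left the nearest ended 10639 bp away. Every combined value given here for the strongest peaks therefore leaves out this region, and the reason for its absence was not tested.

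Apart from that region, the replicate peaks with no combined interval were few and weak. There were 3 such peaks among the 257 of replicate 1 and 14 among the 308 of replicate 2, and none of them was shared by the replicates. The same shares over the whole lists are not given here, so these counts describe the centre alone. Their highest strength was 4.99 in replicate 1 and 5.35 in replicate 2.

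Most peaks of the centre in 1 replicate were found in the other, at an overlap of at least 1 bp. Among the 257 replicate 1 peaks, 211 had a partner in replicate 2 (82.1%, exact 95% interval 76.9 to 86.6), where the whole list had 85.7%. Among the 308 replicate 2 peaks, 209 had a partner in replicate 1 (67.9%, 62.3 to 73.04), where the whole list had 75.0%. In the arms of II the shares were 85.3% and 73.5%. Neither difference between centre and arms passed Fisher's exact test (odds ratios 0.793 and 0.760, adjusted p = 0.386 and 0.245). Matching followed strength: with the peaks of the centre in 4 equal parts by strength, all 65 replicate 1 and all 77 replicate 2 peaks of the strongest part were matched. In the weakest part 34 of 64 and 23 of 77 were. The strongest unmatched peak of replicate 1 ran from 7639651 to 7640500 (q of 5.79e-10) and that of replicate 2 from 9490914 to 9491318 (q of 8.55e-10).

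At the 211 matched pairs of the centre the libraries gave similar strengths. The log2 ratio of replicate 1 over replicate 2 strength had a median of -0.05 (quartiles -0.37 and 0.24), and replicate 1 was the stronger at 91 pairs (43.1%). In the arms it had a median of 0.03, and replicate 1 was the stronger at 51.4% of 185 pairs. These differences between centre and arms were not tested. Spearman's rho across the pairs was 0.753 in the centre and 0.806 in the arms. A difference of more than 2-fold in −log10 q was seen at 9 pairs of the centre, 7 of them stronger in replicate 2.

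The most unequal pairs among the 100 strongest replicate 1 peaks of the centre leaned either way. At the pair from 10502618 to 10503050, q was 9.93e-16 in replicate 1 and 5.65e-06 in replicate 2, a log2 ratio of 1.52. The pair from 6828007 to 6829760 had 3.57e-10 and 0.000159, a log2 ratio of 1.31, and there the replicate 1 interval spanned more ground than its partner. That from 7593144 to 7593648 had a log2 ratio of 0.89. In the other direction, the pair from 6269800 to 6270133 had 6.88e-14 and 2.37e-24, a log2 ratio of -0.84. It was followed by 11967469 to 11967806 (-0.80) and 7104963 to 7105251 (-0.74). These were picked from the strongest replicate 1 peaks, which favours leanings towards replicate 1, and 2 of the 100 had no partner. Over all 211 pairs the largest leaning was towards replicate 2, at the pair from 11637348 to 11637561 (1.19e-05 in replicate 1 and 7.31e-15 in replicate 2, a log2 ratio of -1.52). There the replicate 2 interval, from 11636611 to 11637582, spanned more ground than its partner. It also matched the replicate 1 interval from 11636593 to 11637136, so its value entered more than 1 pair.

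**Figure D4:**
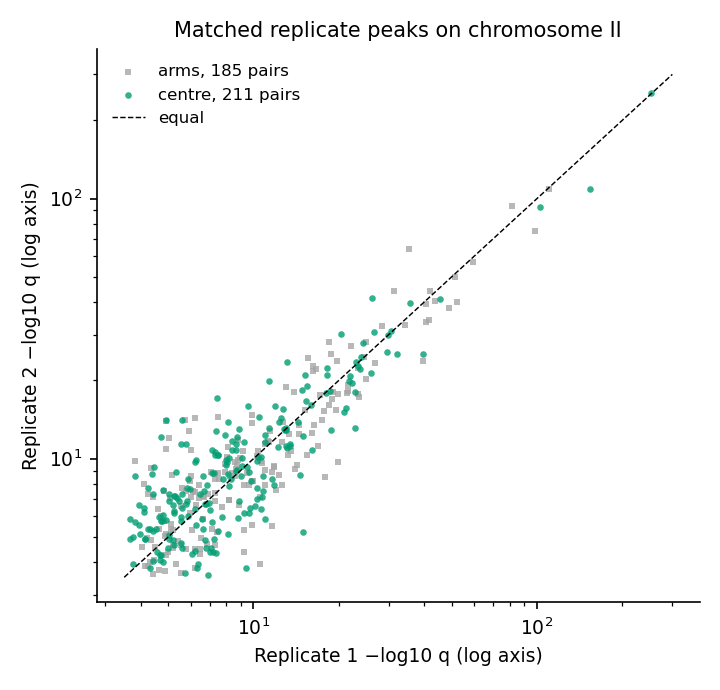
Strength (−log10 q, log axes) in replicate 1 (horizontal) and replicate 2 (vertical) at matched peaks on chromosome II, with 211 pairs in the centre (circles) and 185 in the arms (squares). The dashed line marks equal values. The centre pair at the upper right is the region with strengths of 251.3 and 254.4, and the scatter is widest among weak peaks.

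The combined list of the centre was made up of strong peaks that both replicates held and many weak ones that 1 or neither did. Of the 478, 207 overlapped peaks of both replicates (43.3%, exact 95% interval 38.8 to 47.9), against 46.4% of the whole combined list. Another 42 were matched in replicate 1 only (8.79%, against 8.14% in the arms) and 84 in replicate 2 only (17.6%, against 16.0%). The other 145 (30.3%) overlapped neither, against 32.1% of the whole list. The share in both was 48.6% in the arms of II, and the difference did not pass Fisher's exact test (odds ratio 0.809, adjusted p = 0.245). Median strength was 15.5 for peaks in both, 7.09 for those in replicate 1 alone, 5.93 for those in replicate 2 alone and 4.71 for those in neither. In 4 equal parts by strength, all 120 peaks of the strongest part were in both replicates, and none of the 119 in the weakest part was. The weakest part ended at a strength of 4.96, and the weakest peak in both had 5.63. Combined strength lay near the sum of the replicate strengths at peaks in both (median ratio 0.921). This outcome was thus largely set in advance and is a description only.

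Combined peaks found in neither replicate reached a strength of 8.85. The strongest of them, from 11743320 to 11743982 (q of 1.42e-09), ended 4555 bp before the leading combined region. The next, from 10547751 to 10548202 (q of 4.30e-09), ended 427 bp before the interval from 10548630 to 10549638, which had a q of 9.42e-48. Both of these weak peaks thus stood beside far stronger ones. This did not hold for all peaks in neither replicate. The fifth strongest of them, from 8997432 to 8997693, had a strength of 7.87 and combined neighbours of 3.76 and 6.43. At the 207 peaks in both replicates, the combined strength divided by the sum of the replicate strengths had a median of 0.921 in the centre and 0.952 in the arms.

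Neighbouring peaks of the centre were close together. The median gap between combined neighbours was 7449 bp (quartiles 2024 and 19893), against 13273 bp in the left arm and 10340 bp in the right. In replicate 1 the median gap was 14619.5 bp in the centre and 19188 bp in the arms, and in replicate 2 it was 12017 and 17319 bp. Among combined peaks found in both replicates the medians were 17745.5 bp in the centre, 25271 bp in the left arm and 18006.5 bp in the right arm. The centre and the right arm were thus closer to each other among these peaks.

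Gaps under 1 kb made up 64 of the 477 combined gaps of the centre (13.4%) and 33 of 379 in the arms (8.71%), a difference that was not tested. In replicate 1 the shares were 7.03% and 7.44%, and in replicate 2 they were 8.14% and 7.57%, so the shares lay closer together in the replicate lists. Among combined peaks found in both replicates, the centre had the lower share, with 12 of 206 gaps (5.83%) against 15 of 183 in the arms (8.20%). In 33 of the 64 pairs a member was found in neither replicate, and in 12 pairs both members were in both. Over all combined peaks of the centre, 30.3% were in neither replicate and 43.3% in both. The same counts were not made for neighbours further apart, so they show nothing particular to close pairs. In the 64 pairs the stronger member had a median strength of 13.04 and the weaker one 5.22. The narrowest gaps, of 213 bp, lay between 6824187 and 6824401 and between 7093834 and 7094048. Across the first, replicate 2 had 1 interval, from 6823967 to 6824476, and replicate 1 had no interval there. At the second, the right member was found in neither replicate. A gap of 216 bp separated an interval from 6347514 to 6348078 (q of 8.06e-14) from one from 6348295 to 6348787 (4.34e-35). Both of these were in both replicates, and each replicate also had a separate interval on either side.

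The longest run of closely spaced peaks stood from 6822209 to 6848250. Its 16 combined intervals lay less than 3 kb apart and covered 47.9% of 26042 bp. Replicate 1 had 10 intervals there and replicate 2 had 15. Of the 16 combined intervals, 7 were in both replicates and 2 in neither. None was among the 20 strongest regions above: strength ran from 4.09 to 27.5, with a median of 9.79. Their median width was 587.5 bp and their maximum 1791 bp. The strongest, from 6826667 to 6828447, had a combined q of 3.17e-28, and its best replicate intervals had a strength of 9.49 and 9.25. A second, from 6838206 to 6839253, had a combined q of 4.80e-24, with 7.34e-14 in replicate 1 and 1.04e-11 in replicate 2. Another, from 6843241 to 6845031, had 4.08e-22 and ranked 3 by width among combined peaks of the centre. The run was chosen for description after its intervals had been seen, and what it holds in sequence or genes was not analysed here.

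**Figure D5:**
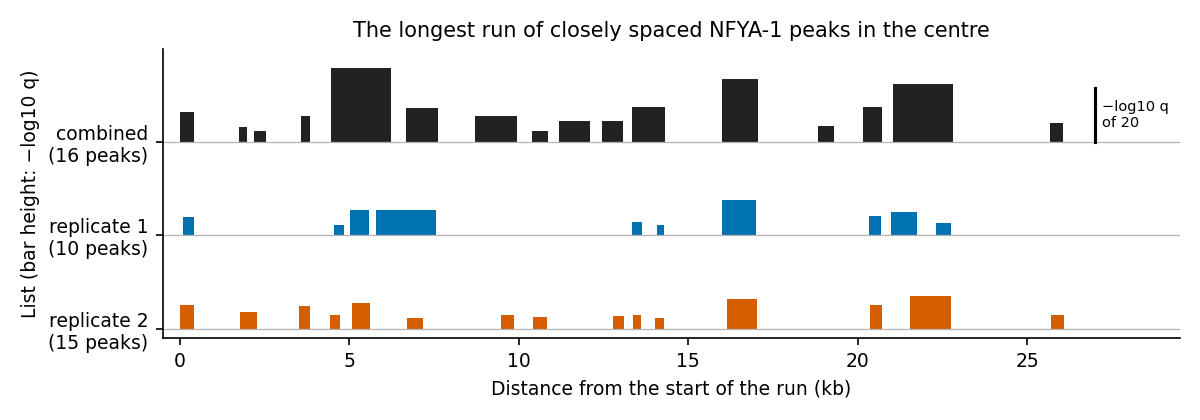
Intervals of the longest run of closely spaced peaks in the chromosome II centre, against distance in kb from its start, in the combined list and both replicates. Bar width is the length of an interval and bar height is its −log10 q, drawn to 1 scale in the 3 rows with a marker for 20. The run holds 16 combined, 10 replicate 1 and 15 replicate 2 intervals, and 7 of the 16 are matched in both replicates.

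Shorter runs of the same kind were found elsewhere in the centre. With the longest included, the centre had 15 runs of 4 or more combined intervals less than 3 kb apart, where the left arm had 2 and the right arm 1. These counts come from 478, 211 and 170 combined peaks on 7.1, 4.90 and 3.27 Mb, and the difference was not tested. Some runs of the centre were mostly peaks found in neither replicate, as from 8481139 to 8484059 (3 of 4) and from 7055653 to 7061290 (3 of 5). After the longest run, the next in size held 7 intervals each, from 6934720 to 6945757 and from 10541876 to 10552396. The latter included a strong interval, with a maximum strength of 47.03. The run with the leading combined region held 5 intervals, from 11742023 to 11751898. The 100 kb section from 6800000 to 6900000, which holds the longest run, had 20 combined peaks, 13 in replicate 1 and 17 in replicate 2. The section after it had 16, 8 and 10, and that from 7800000 to 7900000 had 14, 8 and 7. Of the 478 peaks, 243 (50.8%) had no neighbour within 3 kb inside the centre.

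The longest stretch of the centre without a combined peak was shorter than that of the left arm and longer than that of the right. It ran from 6118638 to 6248467 (129830 bp), followed by 8603816 to 8716357 (112542 bp) and 7374456 to 7478619 (104164 bp). None of the 3 held the midpoint of a peak of either replicate. In the left arm the longest was 190589 bp and in the right arm it was 109394 bp. Gaps of 50 kb or more made up 22 of 477 in the centre (4.61%) and 41 of 379 in the arms (10.8%), which was not tested.

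The widest combined peaks of the centre were the 2 strongest, with 2305 and 1913 bp, followed by the one of 1791 bp in the longest run. At the left edge of the window, the first peak inside ran from 4902145 to 4902648 (q of 1.66e-08, in neither replicate) and the last outside from 4851649 to 4851966 (7.66e-19, in both). At the right edge, the last inside ran from 11979499 to 11980366 (1.11e-29, in both) and the first outside from 12006698 to 12006890 (2.36e-05, in replicate 2 alone).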

How the data were processed

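The authors deposited 3 interval lists with a q-value per peak, a p-value adjusted for multiple testing. Per the file headers and source column, peaks were called with PeakSeq on build WS180. Not given in the sources used here are the aligner, the PeakSeq version and threshold, the use of each input library and the making of the combined list. Read counts were not used here, so depth is unknown, and weak peaks near the threshold are the least certain.

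Peaks were kept by midpoint. The span of II ran from 1391 to 15266701, the first to the last base of any list, which gave arms of 8.17 Mb. Matches needed an overlap of 1 bp, and the strongest matching interval was used. Densities were compared with exact binomial tests and shares with Fisher's exact tests, two-sided, with Benjamini-Hochberg adjustment. Tests and intervals take peaks as independent, and the exact Clopper-Pearson intervals cover counting error only. The spread between libraries was not tested, as there were only 2 for ChIP. Alternatives changed the list, the overlap rule, the strength threshold, the window and the arm length.

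Named regions were the 20 strongest combined peaks in both replicates, strong replicate peaks lacking a combined interval, the 3 widest peaks, the 3 narrowest and 3 longest gaps, the 3 densest 100 kb sections, the 3 most unequal pairs each way and the peaks at the edges. The window, rules and comparisons were chosen with earlier results of these data known. Functions were tested on simulated data. The tools were SciPy 1.17.1, NumPy 2.4.6, matplotlib 3.10.9 and pandas 2.3.3 under Python 3.11.15.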

Additional observations from a re-analysis of the deposited data

How the results depend on the processing

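For 8 results, 35 alternative values were computed, and 22 fell on the same side of the threshold, or within the interval, of the value reported. Results with a test were judged by the threshold and the others by the interval. The 22 thus include 98.3% of the stronger replicate 1 peaks found in replicate 2 and 95.7% of the stronger replicate 2 peaks found in replicate 1. Both lie above the intervals of the values reported. The density ratio of the centre to the arms was 1.20 in the stronger part of the combined list and 1.01 among its 1000 strongest peaks, and neither passed the exact test. Over the other 6 alternatives it ran from 1.26 to 1.44, and it was 1.36 and 1.40 in the replicate lists. The 1.26 came from narrowing the window by 500 kb at each side, which moved the dense edge strips into the arms. It is therefore not a comparison of the inner centre with the same arms. The odds ratio of being in both replicates passed the unadjusted exact test with midpoints within 200 bp (0.755) and turned to 1.21 in the stronger part of the list, which did not pass. The cause was not tested. Of the combined centre peaks, 38.5% were in both replicates when 50% reciprocal overlap was asked, and 84.5% of the stronger ones were. With 1 replicate left out, the share found in the other was 52.1 to 60.9%. The median gap was 12017 to 14619.5 bp in the replicate lists, 16375 bp in the stronger part and 17745.5 bp for combined peaks in both replicates, as fewer peaks entered. The odds ratio of being among the 1000 strongest was 0.616 to 0.805 in the replicate lists, and did not pass in replicate 2. Alternatives without the 3 densest 100 kb sections, and those of the last odds ratio, were chosen after seeing the data. No paired analysis was possible because the result comes from peak lists, and the input libraries were not analysed here. Depth is unknown, so a peak missing from 1 list cannot be called absent there.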
